A study of Homo sapiens with 10 samples.

Results

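Keratins of simple and stressed epithelium are described here as 9 genes, KRT7, KRT8, KRT18, KRT19, KRT17, KRT23, KRT34, KRT80 and KRT81. They are the rows of the deposited count table whose Ensembl identifier maps to one of these symbols, which gave 9 of 61587 rows, and the rule itself uses no measured value. The table holds bulk polyA RNA-seq of RPTEC/TERT1 cells, a human renal proximal tubular epithelial line immortalised with telomerase. The study irradiated these cells to make them senescent and asked which genes then differ from healthy cells. The 5 irradiated samples (irradiated replicates 1 to 5) received 10 Gy of gamma irradiation in plain culture, and the 5 control samples (control replicates 1 to 5) were mock-irradiated. RNA was taken on day 7 in both groups, so no time course exists. All samples come from a single immortalised line, and nothing in the sources used here says whether replicates were separate cultures, so the p-values measure the spread between these samples. The labels number the cell line upwards from sample to sample, whereas the study's methods name only RPTEC/TERT1, which is taken as the line of all 10 samples. Control and irradiated samples that share a number in the labels were treated as pairs.

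Keratins are the intermediate filament proteins of epithelial cells. A filament needs an acidic type I keratin and a basic type II keratin as partners, and each epithelium uses characteristic pairs. KRT8 (type II) with KRT18 (type I) is the basic pair of simple epithelia such as the renal tubule, and KRT7 (type II) and KRT19 (type I) are added in ducts and in many reactive epithelia. KRT17 is a type I keratin of wounded and stressed epidermis, KRT23 a type I and KRT80 a type II epithelial keratin, and KRT34 and KRT81 belong to the hair keratins, of type I and type II respectively. Type II genes lie together on chromosome 12 and type I genes on chromosome 17, with KRT18 as the exception beside KRT8.

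Irradiated RPTECs had more mRNA of KRT7, KRT19 and KRT80, by 1.61-fold to 1.68-fold, and less of KRT81, whereas the basic pair KRT8 and KRT18 moved by 1.07-fold and 1.23-fold and was not called. The hair keratin KRT34 was almost undetected in control samples, with 2 reads over 5 samples, and gave 85 reads in irradiated samples. Values are CPM, read counts scaled to library size with normalisation factors by the trimmed mean of M-values (TMM). Changes are log2 changes of irradiated against control, with their standard error (SE), from edgeR's quasi-likelihood test with the replicate number as a block. A gene was tested if it had at least 200 counts over the 10 samples, and called at a Benjamini-Hochberg adjusted p under 0.05 over all 19006 genes tested. KRT23 and KRT34, with 76 and 87 counts in total, missed that limit, so 7 of 9 keratins were tested. Of these, 4 were called (46.6% of all tested genes were), with 3 higher and 1 lower, where 23.9% of all tested genes were called higher and 22.7% lower. The fitted changes of all 7 were under 2-fold, while 5.26% of tested genes were called more than 2-fold higher and 4.06% more than 2-fold lower. Of the 7, KRT19 alone had every irradiated sample above every control sample, a separation in that direction seen in 14.6% of tested genes. The median log2 change of the 7 keratins was 0.58, and that of all tested genes was -0.0098.

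The data hold 66269311 to 131555873 counts per sample, and TMM factors lay between 0.915 and 1.06. Over all genes, 4550 were called higher and 4307 lower, and scaling by library size alone gave 3609 higher and 5894 lower. The 4 called keratins kept their direction and call under every scaling tried. Of 12 markers of proximal tubule, LRP2, SLC22A6, SLC34A1 and HNF4A were under 200 counts, LRP2, which encodes the endocytic receptor megalin, with 17 counts in all, while PAX8, ANPEP and CUBN were present. All 7 pan-epithelial markers were tested. Their summed level was 1289 to 1692 CPM in control and 1604 to 1993 CPM in irradiated samples, with 2 called higher, mainly CLDN1 (291 ± 34 to 838 ± 114 CPM, SD, n = 5 each), and 3 called lower, CLDN4, CDH1 and ESRP1. Markers of thick ascending limb and distal tubule summed to 174 to 539 CPM in control and 27.4 to 211 CPM in irradiated samples, mostly SLC12A1 and KCNJ1. Markers of urothelium and basal epithelium, cells rich in several of these keratins, summed to 3.98 to 6.68 CPM in control and 10.4 to 39.4 CPM in irradiated samples. Nearly all of this was UPK1B, while UPK1A, UPK3A, KRT5, KRT14, KRT13 and KRT20 each stayed under 200 counts. Fibroblast markers summed to 15.9 to 23.5 and 28.6 to 40.2 CPM. Both that were tested were called higher, COL1A1 (log2 change 0.78, edgeR adjusted p = 0.000108) and DCN (2.36, adjusted p = 0.000201). COL1A2 and COL3A1 had 23 and 4 counts. Collecting duct principal cell markers summed to 2.47 to 2.87 CPM in control and 1.19 to 4.08 CPM in irradiated samples. Endothelial markers summed to 1.32 to 2.49 and 4.18 to 6.09 CPM, with CDH5 called higher. Leukocyte markers summed to 0.269 to 0.648 and 1.27 to 2.13 CPM, with ITGAM called higher. ITGAM, with 25 counts in control and 552 in irradiated samples, reached 200 counts only through the irradiated group. PECAM1 (1094 counts) was also called higher (log2 change 0.72, edgeR adjusted p = 0.00519). VWF (402 counts) and the leukocyte marker PTPRC (312 counts) were tested and not called. KDR (2 counts) and CD3E (3 counts) were near 0. The part of such cells in the keratin values was not tested, and in bulk samples more cells of a type cannot be told apart from more RNA per cell.

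KRT8, the type II partner of the basic pair, lies on chromosome 12 of GRCh38 from 52897187 to 52949954 on the minus strand (ENSG00000170421). Per kilobase of the union of its annotated exons it ranked second after KRT19 in both groups. In CPM not divided by length it stood above KRT19 in control samples, with means of 1010 and 673 CPM. Its expression was 982, 839, 954, 1195 and 1079.6 CPM in control replicates 1 to 5, and 1229.8, 796, 1226, 1147 and 1044 CPM in irradiated replicates 1 to 5. The groups overlapped, and the irradiated sample was above its control in 2 of 5 pairs. The log2 change was 0.10 (SE 0.086, edgeR adjusted p = 0.370).

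KRT18, the type I partner, is encoded next to KRT8 on the plus strand, from 52948871 to 52952906 (ENSG00000111057). Control replicates 1 to 5 had 194, 214, 211, 305 and 260.2 CPM, and irradiated replicates 1 to 5 had 307, 236, 323, 302 and 280.2 CPM. Replicates 1 and 3 carried most of the difference, and in replicate 4 the 2 samples differed by -0.012 on the log2 scale. The log2 change of 0.30 (SE 0.11) missed the threshold with an edgeR adjusted p of 0.0524, and the call was sensitive to the method, with 0.0184 in DESeq2, 0.0483 in limma-voom and 0.0384 without replicate 4. Of the annotated exon length, 17.1% of KRT18 and 7.63% of KRT8 lies under exons of the other gene on the opposite strand. Whether the counting used strand is not given in the sources used here, so reads in that stretch could be missing from both genes.

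KRT7 and KRT19, the keratins of ductal epithelium, rose together. KRT7 lies on chromosome 12 from 52232520 to 52252186 on the plus strand (ENSG00000135480). It measured 351, 338, 375, 471 and 334 CPM in control replicates 1 to 5 and 708, 397, 914, 635 and 493 CPM in irradiated replicates 1 to 5. Each irradiated sample exceeded its own control, by 0.23 (replicate 2) to 1.28 (replicate 3) on the log2 scale, although irradiated replicate 2 lay below control replicate 4. Mean expression was 374 ± 56 CPM in control and 629 ± 199.9 CPM in irradiated samples (SD, n = 5 each). The log2 change was 0.70 (SE 0.15, edgeR adjusted p = 0.00614).

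KRT19, the smallest keratin and one without the usual tail domain, lies on chromosome 17 from 41523617 to 41528308 on the minus strand (ENSG00000171345). Control replicates 1 to 5 had 652, 684, 581, 744 and 703 CPM, and irradiated replicates 1 to 5 had 1261, 779, 1416, 1074 and 991 CPM. All irradiated samples were above all controls, with irradiated replicate 2 again the lowest and irradiated replicate 3 the highest. The means were 673 ± 61 and 1104 ± 246 CPM (SD, n = 5 each), which gave a log2 change of 0.69 (SE 0.15, edgeR adjusted p = 0.00671). No stretch of 75 bases in the canonical transcripts of KRT7 and KRT19 was found in a transcript of another gene, so counts of these genes are little exposed to like sequences elsewhere. Exons on the opposite strand cover 7.85% of the exon length of KRT7 and 0% of that of KRT19. Reads in that stretch of KRT7 could be missing if the counting ignored strand.

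KRT80, a type II keratin found near desmosomes and on chromosome 12 from 52168996 to 52192014 on the minus strand (ENSG00000167767), rose to a like degree from a lower level. It had 61.1, 59.6, 31.7, 86.8 and 75.5 CPM in control replicates 1 to 5 and 99.3, 77.2, 112, 111 and 109 CPM in irradiated replicates 1 to 5. The irradiated sample was higher in 5 of 5 pairs, and the groups overlapped through irradiated replicate 2 and control replicate 4. Mean expression was 62.9 ± 20.7 CPM in control and 101.7 ± 14.6 CPM in irradiated samples (SD, n = 5 each), and the log2 change was 0.75 (SE 0.20, edgeR adjusted p = 0.0184). Control replicate 3, the lowest, set much of this size. Without replicate 3 the log2 change was 0.50 (adjusted p = 0.00093), and without replicate 1 the call was lost (adjusted p = 0.0565).

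**Figure D1:**
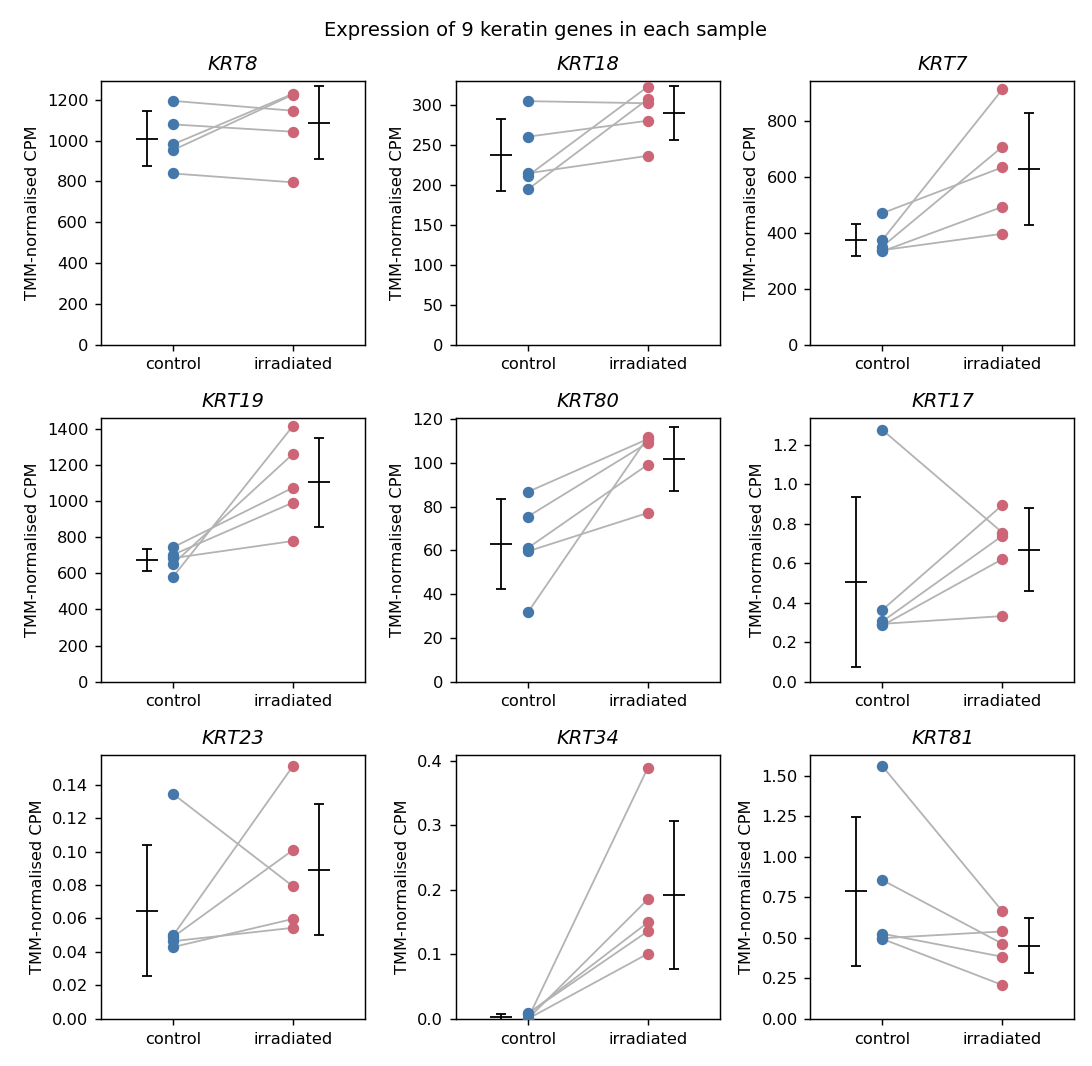
TMM-normalised CPM (linear axes from 0) of the 9 keratins in each control (blue) and irradiated (red) sample, with lines joining samples of the same replicate number and bars giving the mean ± SD of 5 samples. The 5 irradiated samples lie above all controls for KRT19 and KRT34, while the groups overlap for KRT8 and KRT17 has a single high control at 1.28 CPM.

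KRT17, the stress keratin of epidermis (chromosome 17, 41619442 to 41624842, minus strand, ENSG00000128422), was close to the lower limit of the data. It gave 24, 51, 128, 33 and 34 counts in control replicates 1 to 5 and 33, 60, 70, 68 and 55 counts in irradiated replicates 1 to 5. As CPM, control replicate 3 stood at 1.28 against 0.286 to 0.365 in the other controls, and irradiated samples ran from 0.333 to 0.896. With all samples the log2 change was 0.58 (SE 0.33, edgeR adjusted p = 0.185), and without replicate 3 it was 1.04 (adjusted p = 0.00712). Whether KRT17 was called thus turned on replicate 3. Processed pseudogenes of KRT17 held counts equal to 1.47% to 36.4% of the KRT17 counts in a sample, 50 reads in all.

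KRT81 was the only keratin of the 9 called lower. It is a type II hair keratin on chromosome 12 from 52285913 to 52291534 on the minus strand (ENSG00000205426). It gave 43, 69, 50, 168 and 102 counts in control replicates 1 to 5 and 38, 14, 50, 61 and 41 counts in irradiated replicates 1 to 5. In CPM, control replicates 4 and 5 were high, at 1.56 and 0.857, the other controls lay between 0.494 and 0.526, and irradiated samples between 0.209 and 0.664. The irradiated sample was lower in 4 of 5 pairs, and the pair of replicate 3 differed by 0.11 in the other direction on the log2 scale. The log2 change was -0.74 (SE 0.22, edgeR adjusted p = 0.0252). It missed the threshold without the replicate block (0.122) and without replicate 1 (0.0501), 2 (0.0598), 4 (0.108) or 5 (0.0854). Part of KRT81 cannot be told from its neighbour KRT86, since 25.6% of the stretches of 150 bases, the read length, in its transcript also occur in that of KRT86. KRT86 had 172 counts in total, 88 in control and 84 in irradiated samples.

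KRT23, a type I keratin on chromosome 17 from 40922700 to 40937646 on the minus strand (ENSG00000108244), was detected at 4, 6, 5, 5 and 16 counts in control replicates 1 to 5 and 10, 4, 14, 5 and 7 counts in irradiated replicates 1 to 5. The summed rate was 1.39 times that of controls (95% interval 0.863 to 2.24, exact and for counting error only), so no difference was detectable at this depth.

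KRT34, a type I hair keratin (chromosome 17, 41377669 to 41382306, minus strand, ENSG00000131737), showed the largest ratio between groups of the 9. Control replicates 1 to 5 had 0, 1, 0, 0 and 1 counts, and irradiated replicates 1 to 5 had 10, 10, 36, 17 and 12 counts. No irradiated sample had as few as any control, and irradiated replicate 3 had the most. The rate in irradiated samples was 53.1 times that of controls, with a wide 95% interval of 14.3 to 446 for counting error, because it rests on 2 control reads. In a fit that kept all 44263 genes with at least 1 count, the log2 change of KRT34 was 5.24 (SE 0.59, edgeR adjusted p = 3.04e-07), where 10.2% of genes were called higher. Its level was low, at 0.19 ± 0.11 CPM (SD, n = 5) in irradiated samples.

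The neighbouring hair keratin gene KRT33B (chromosome 17, 41363498 to 41369813, minus strand), which with other relatives shares 4.1% of the 75-base stretches of KRT34, had 0 counts in all 5 controls and 3, 1, 10, 4 and 4 counts in irradiated replicates 1 to 5. Against a floor of 3 counts over the 5 controls its rate was 9.17-fold higher, and the exact 95% lower limit for counting error was 6.85-fold. The same fit gave an edgeR adjusted p of 0.00614, but KRT33B passed its limit of 1 count only through irradiated samples. That p is therefore no separate support. KRT25, a type I keratin of the hair follicle sheath, is encoded in the same region of chromosome 17, from 40748021 to 40755331, and also rose from a low level, with 17, 20, 3, 17 and 11 counts in control and 87, 30, 102, 59 and 54 counts in irradiated replicates 1 to 5. The 250 bases upstream of the start of these 3 genes are shown because the genes were all near or at 0 in control samples and rose. They were taken from RefSeq (GRCh38.p14), read 5′ to 3′ on the minus strand, with the TATA box motif TATAAA in capitals. The windows are chr17:41382307-41382556 for KRT34, chr17:41369814-41370063 for KRT33B and chr17:40755332-40755581 for KRT25.
KRT34: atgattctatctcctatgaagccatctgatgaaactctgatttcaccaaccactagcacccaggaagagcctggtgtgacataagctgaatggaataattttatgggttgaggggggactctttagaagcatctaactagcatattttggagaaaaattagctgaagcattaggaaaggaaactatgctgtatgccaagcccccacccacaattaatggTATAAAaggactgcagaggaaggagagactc
KRT33B: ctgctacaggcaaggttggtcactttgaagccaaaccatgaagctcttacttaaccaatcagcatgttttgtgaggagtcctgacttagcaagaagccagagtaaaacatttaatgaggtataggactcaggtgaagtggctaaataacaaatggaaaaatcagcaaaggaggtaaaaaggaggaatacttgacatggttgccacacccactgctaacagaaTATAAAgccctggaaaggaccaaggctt
KRT25: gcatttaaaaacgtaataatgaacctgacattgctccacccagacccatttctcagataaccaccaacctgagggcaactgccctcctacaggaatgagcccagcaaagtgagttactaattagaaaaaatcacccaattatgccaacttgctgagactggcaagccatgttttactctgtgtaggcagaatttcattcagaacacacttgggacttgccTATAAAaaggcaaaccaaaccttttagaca

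Each of these windows holds TATAAA on the strand of the gene, 31 bases upstream of the start in KRT34, 28 in KRT33B and 30 in KRT25. The motif was searched on both strands and occurs in 10.7% of 35116 such windows of RefSeq genes. The AP-1 motif TGANTCA (6.57% of windows) and the NF-κB consensus (9.96% of windows) were searched in the same way and have no match in these 3 windows. Of the 9 keratins, only KRT8 and KRT34 had a window in the RefSeq table, and that of KRT8 held none of these motifs. A match describes the letters of the window and is not evidence of binding.

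**Figure D2:**
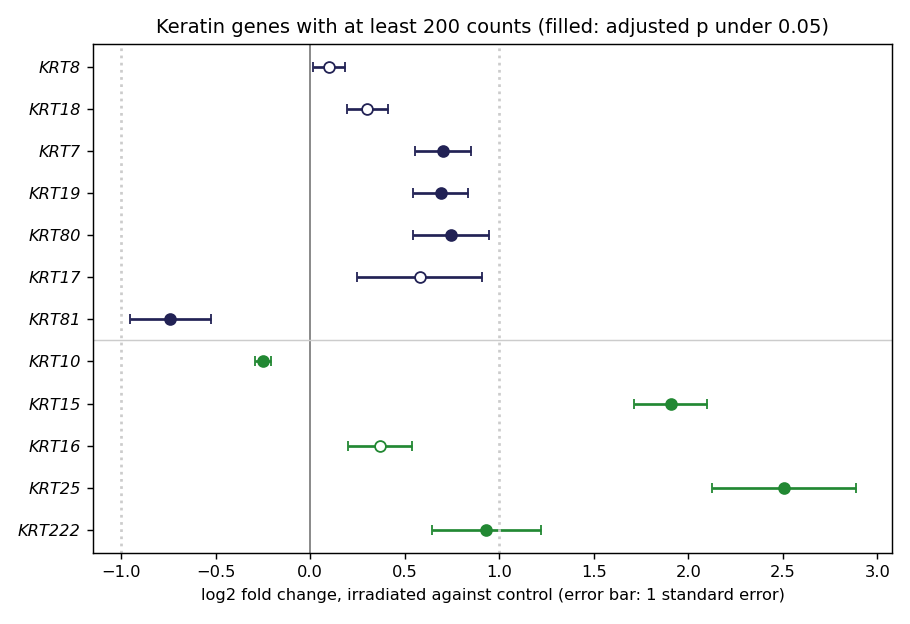
Fitted log2 fold change (irradiated against control, linear axis) with 1 standard error for the 7 tested keratins described here (dark blue) and the 5 other tested keratins (green), with filled points for an adjusted p under 0.05 and dotted lines at 2-fold. KRT7, KRT19 and KRT80 cluster between 0.69 and 0.75, and KRT25 and KRT15 lie beyond 2-fold.

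Levels were compared between genes after division by exon length, as CPM per kilobase of the union of annotated exons. In control samples the order was KRT19 (288 ± 26), KRT8 (147 ± 20), KRT7 (93.5 ± 14.1), KRT18 (77.2 ± 14.7) and KRT80 (14.4 ± 4.7 CPM per kilobase, SD, n = 5). A wide gap separated these from KRT81 (0.408 ± 0.237), KRT17 (0.169 ± 0.144), KRT23 (0.022 ± 0.013) and KRT34 (0.0019 ± 0.0026). KRT7 and KRT18, and likewise KRT81 and KRT17, were neighbours whose order held in 4 of 5 control samples only, so they do not separate beyond their spread. In irradiated samples KRT19 (473 ± 105) remained first and KRT8 (158 ± 26) and KRT7 (157 ± 50 CPM per kilobase) were nearly equal. KRT34 (0.117 ± 0.070) stood above KRT23 (0.031 ± 0.013) in all 5 irradiated samples. When lengths of the longest transcript were used instead, KRT7 stood above KRT8 and KRT17 above KRT81 in irradiated samples, so the order within these pairs depends on the length chosen. KRT19 stood above KRT8 with both lengths. The exon union of KRT8 is 6881 bases and its canonical transcript 1784, against 2336 and 1390 for KRT19. Levels per canonical transcript were not computed. The order of KRT19 and KRT8 is thus tied to the lengths used, and so is the level of a ratio between genes.

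The balance between keratins within a sample shifted. The log2 ratio of KRT7 to KRT8 per kilobase, which compares the type II keratins, was -0.70, -0.53, -0.56, -0.56 and -0.91 in control replicates 1 to 5 and -0.013, -0.22, 0.36, -0.070 and -0.30 in irradiated replicates 1 to 5. The groups did not overlap, and the ratio rose by 0.60 on the log2 scale, or 1.52-fold (exact permutation test, two-sided, p = 0.00794, the smallest this design allows, adjusted p = 0.0357 over 6 ratios). KRT19 to KRT18, the ratio of the type I keratins, rose from 1.91 ± 0.19 to 2.30 ± 0.17 (log2, SD, n = 5 each, exact permutation p = 0.0159, adjusted p = 0.0357) and was higher in 5 of 5 pairs. The ratio of KRT8 to KRT18 fell by 0.20 on the log2 scale (from 0.94 ± 0.16 to 0.74 ± 0.09, n = 5 each, exact permutation p = 0.0238, adjusted p = 0.0357) and was lower in 5 of 5 pairs. This last ratio is exposed to the overlap of the 2 genes noted above. Every ratio that holds KRT7, KRT8 or KRT18 is exposed to the opposite-strand exons of that gene.

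The summed type II keratins KRT7 and KRT8 against the summed type I keratins KRT18 and KRT19 also fell, by 0.25 on the log2 scale (from -0.61 ± 0.14 to -0.85 ± 0.07, n = 5 each, exact permutation p = 0.0238, adjusted p = 0.0357), in 5 of 5 pairs. KRT7 to KRT19, the keratins that rose, kept a ratio of -1.63 ± 0.20 in control and -1.62 ± 0.15 in irradiated samples (log2, n = 5 each, exact permutation p = 0.897). The ratio of KRT17 to KRT18 differed by 0.32 on the log2 scale, less than its SD of 1.04 among controls (exact permutation p = 0.611). With any replicate left out, 70 assignments remain, and the adjusted p of the 4 called ratios was then 0.0571 or more, while their direction stayed. Over the 5 pairs, an exact sign-flip test cannot go below p = 0.0625, and each of the 4 ratios then had an adjusted p of 0.0938.

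**Figure D3:**
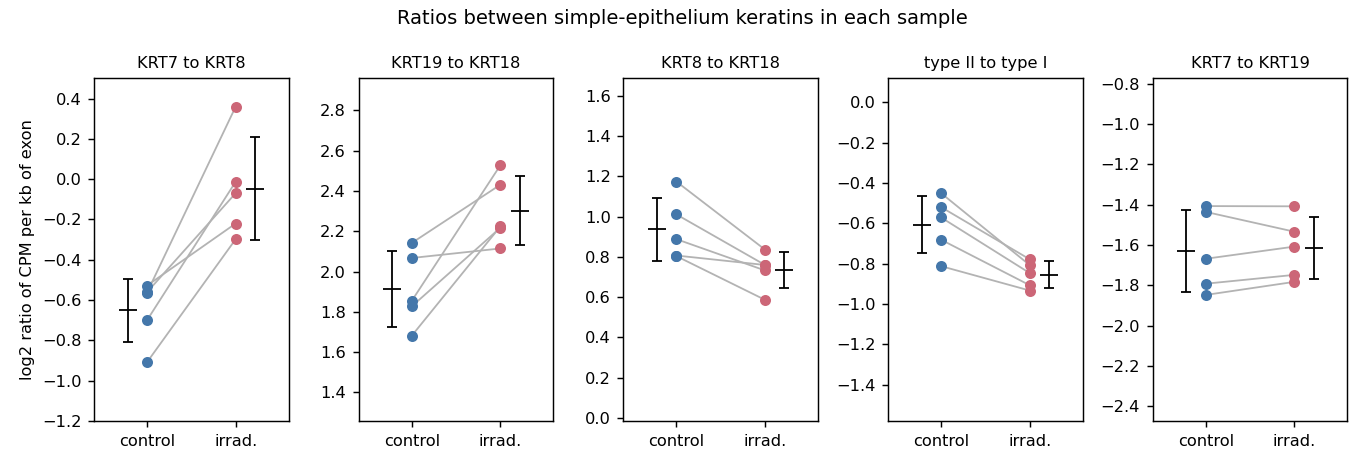
Log2 ratio of CPM per kilobase of exon for 5 keratin ratios in each control (blue) and irradiated (red) sample, with lines joining samples of the same replicate number and bars giving the mean ± SD of 5 samples. KRT7 to KRT8 and KRT19 to KRT18 rise in all pairs, KRT8 to KRT18 and type II to type I fall in all pairs, and KRT7 to KRT19 stays near -1.6.

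The 9 keratins held 0.235%, 0.227%, 0.207%, 0.291% and 0.251% of all counts in control replicates 1 to 5 and 0.352%, 0.231%, 0.365%, 0.319% and 0.290% in irradiated replicates 1 to 5. KRT7, KRT8, KRT18 and KRT19 made up 97.0% of this. The share was higher in 5 of 5 pairs, with means of 0.242% ± 0.031 and 0.311% ± 0.054 (SD, n = 5 each), and missed the threshold (exact permutation test, two-sided, p = 0.0556). As a share of nuclear-encoded counts the difference was 0.0813 percentage points (exact permutation p = 0.0397). Mitochondrially encoded genes took 7.78% to 10.7% of control and 8.999% to 12.2% of irradiated counts.

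Replicate 2 was the pair with the smallest rise of KRT7 and KRT19, and irradiated replicate 2 was the lowest of the irradiated samples for KRT7, KRT8, KRT18, KRT19, KRT80 and KRT81. It also had the fewest counts of all samples, 66269311. Replicate 3 was the pair with the largest rise of KRT7, KRT8, KRT19, KRT23 and KRT80, with control replicate 3 the lowest control for KRT19 and KRT80. Without replicate 3 the log2 fold changes of KRT7 and KRT19 were 0.56 (adjusted p = 0.00739) and 0.55 (0.00743), and without replicate 2 they were 0.83 (0.00352) and 0.82 (0.0031), all from edgeR.

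Genes whose profile over the 10 samples was closest to each keratin were found by the root mean square difference of log2 CPM. Profiles were centred on the control mean, and the 12821 genes compared had a mean of at least 1 log2 CPM. The nearest to KRT7 were GALNT5 (0.138) and PNPLA3 (0.141). The nearest to KRT19 were PSMD2 (0.0953), a subunit of the proteasome, and PRXL2B (0.108). KRT8 was closest to PGAM1 (0.0807), a glycolytic enzyme, and SLC16A4 (0.101). The profile of KRT18 was closest to VIM (0.0797), which encodes vimentin, the intermediate filament of mesenchymal and injured tubular cells, and to MCTP1 (0.0834). KRT80 lay next to CHML and CAMSAP1-DT (both 0.146). For KRT17 and KRT81 the smallest differences were 0.373 for CD55 and 0.409 for S100A2. Both keratins lay below the level required of the genes compared. Genes at their own level were thus left out, and these larger differences cannot show a lack of neighbours.

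Of the 46 other keratin genes, 38 had at least 1 count and 5 reached 200 counts. Of these, 3 were called higher (23.9% of all tested genes were) and 1 lower (22.7% were). KRT15, a type I keratin of basal epithelial cells, rose from 1.20 ± 0.28 to 4.50 ± 0.65 CPM (SD, n = 5 each), and its log2 change was 1.91 (SE 0.19, edgeR adjusted p = 0.000218). The log2 change of KRT25, whose upstream window is printed above, was 2.51 (SE 0.38, adjusted p = 0.00141). With 68 counts in control and 332 in irradiated samples, KRT25 reached 200 counts only through the irradiated group. Its call is therefore no separate support. KRT222, a keratin-like gene with 34.5% of its exon length shared with another gene on the same strand, had 0.93 (SE 0.29, adjusted p = 0.0304), and missed the threshold without replicate 1 (0.102), 3 (0.0563) or 5 (0.0551).

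KRT10, a type I keratin of suprabasal epidermis, was the exception, lower in every irradiated sample than in any control (12% of tested genes were), at 49.4 ± 2.0 against 41.5 ± 1.3 CPM (SD, n = 5 each, log2 change -0.25, adjusted p = 0.00244). KRT16, which is coexpressed with KRT17 in wounded epidermis, differed by 0.37 on the log2 scale (SE 0.17, adjusted p = 0.108). KRT5 and KRT14, the basal pair of stratified epithelium, had 83 and 5 counts over all 10 samples, and KRT6A had 4. KRT33A, a close relative of KRT34, had 5 counts, 1 in control and 4 in irradiated samples. KRT83, a type II hair keratin beside KRT81, had 24 counts in control and 65 in irradiated samples (log2 change 1.72, adjusted p = 0.00615 among genes with at least 1 count).

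Among 29 genes of desmosomes, hemidesmosomes and keratin linkers, the structures that anchor keratin filaments, 22 were tested. Of the 22, 11 were called higher (23.9% of all tested genes were) and 6 lower (22.7% were), with a median log2 change of 0.18. The hemidesmosome genes COL17A1 and ITGA6, which encode collagen XVII and the integrin α6 chain, had log2 changes of 1.39 (SE 0.068, edgeR adjusted p = 1.59e-05) and 1.26 (SE 0.18, adjusted p = 0.000954), and every irradiated sample was above every control. COL17A1 rose from 131 ± 15 to 346 ± 58 CPM and ITGA6 from 54.9 ± 14.9 to 128 ± 15 CPM (SD, n = 5 each). ITGB4, the partner chain of ITGA6, was lower, with a log2 change of -0.40 (SE 0.11, edgeR adjusted p = 0.0174), and missed the threshold without the replicate block (0.0673) and without replicate 1 (0.068), 4 (0.0614) or 5 (0.0563). Its controls ran from 692 to 1396 CPM, around the irradiated samples at 742 to 937 CPM. Without the block 3 genes of this list were called lower. PERP, a desmosomal protein and p53 target, rose from 102.1 ± 9.3 to 236 ± 31 CPM (log2 change 1.20, adjusted p = 1.27e-05), and PLEC, which encodes the linker plectin, from 2260.0 ± 256 to 3393 ± 302 CPM (0.59). PPL, which encodes periplakin, fell from 321 ± 25 to 206 ± 16 CPM, by 0.64 on the log2 scale (adjusted p = 0.000116). DSP, which encodes desmoplakin, the main keratin anchor of desmosomes, was at 357 ± 34 and 368 ± 33 CPM and was not called (log2 change 0.045, adjusted p = 0.586, and -0.031 with library size alone).

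Of 13 other intermediate filament genes, 9 were tested, 4 were called higher (23.9% of all tested genes were) and 3 lower (22.7% were). The neurofilament genes NEFL and NEFM and the related INA rose in all 5 pairs, with log2 changes of 2.08 (SE 0.082), 1.69 (SE 0.084) and 1.61 (SE 0.20). NEFL went from 82.1 ± 12 to 347 ± 48 CPM (SD, n = 5 each, edgeR adjusted p = 8.62e-06). VIM rose by 0.25 on the log2 scale (SE 0.084, adjusted p = 0.0389), from 365 ± 54 to 433 ± 40 CPM (SD, n = 5 each). This missed the threshold with upper-quartile scaling (0.0646), library size alone (0.106), no replicate block (0.0865) and without replicate 1 (0.126), 3 (0.0618) or 5 (0.0526). GFAP, the filament protein of astrocytes, was at 1.14 ± 0.12 and 0.84 ± 0.25 CPM and was called lower (-0.48, adjusted p = 0.0294), a call lost without the replicate block and without replicate 4 or 5.

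Of 27 genes of the cornified envelope, the shell of terminally differentiated epidermal cells, 5 were tested. All 5 were called higher, as were 23.9% of all tested genes. The rest were under 200 counts and went both ways. KLK5 gave 56 counts in control and 12 in irradiated samples, and S100A9 gave 43 and 100. FLG, which encodes the keratin-bundling protein filaggrin, rose from 6.31 ± 1.83 to 25.9 ± 3.9 CPM (log2 change 2.06, SE 0.19, edgeR adjusted p = 0.000151), and HRNR, which encodes hornerin, from 2.61 ± 0.79 to 8.53 ± 2.38 CPM (1.71, SE 0.22, adjusted p = 0.000573). TGM1, the transglutaminase that cross-links the envelope, and CNFN had 0.97 and 0.93. The structural envelope gene IVL had 1 count over all 10 samples, and SPRR1A had 2.

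Of 16 transcription and splicing regulators of epithelial cells, 14 were tested, with a median log2 change of -0.045. Of the 14, 2 were called higher (23.9% of all tested genes were) and 5 lower (22.7% were). KLF4 rose from 14.2 ± 3.1 to 24.9 ± 4.0 CPM (SD, n = 5 each, log2 change 0.82, edgeR adjusted p = 0.00164). OVOL1 (-0.88), CEBPB (-0.80), ELF3 (-0.76) and the splicing factor ESRP1 (-0.42) had the largest falls. CEBPB went from 37.7 ± 8.9 to 21.2 ± 1.4 CPM (SD, n = 5 each, edgeR adjusted p = 0.00172) and ELF3 from 153 ± 33 to 89.2 ± 8.2 CPM (adjusted p = 0.00256). TP63, the regulator of basal keratins, was near its detection limit at 0.272 ± 0.135 and 0.241 ± 0.062 CPM and was not called.

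**Figure D4:**
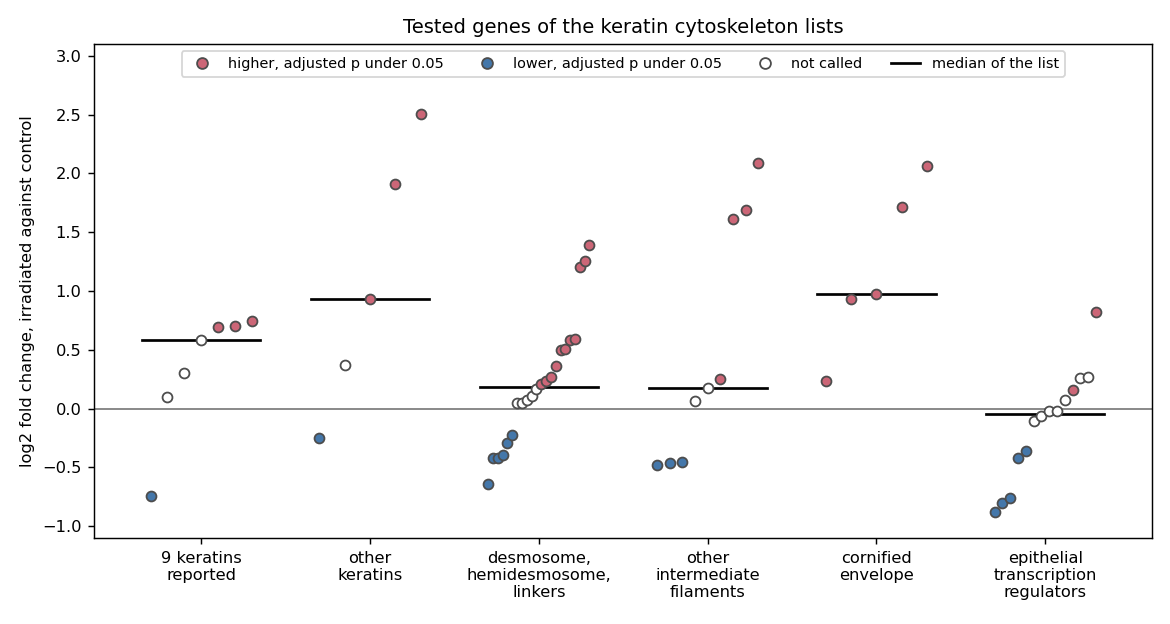
Fitted log2 fold change (irradiated against control, linear axis) of every tested gene in 6 lists, each point a gene and the black bar the median of the list, with called genes filled. All 5 tested cornified envelope genes, of 27 in the list, are higher. The transcription regulators have a median of -0.045, and the 7 tested keratins have a median of 0.58.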

How the data were processed

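The authors trimmed adapters from paired reads, aligned them to GRCh38 with STAR and counted reads on GENCODE genes during alignment. What they deposited are raw counts, whole numbers for each gene in each sample, not normalised or filtered. The annotation release and the strand setting of the counting are not given in the sources used here. The labels and the methods name different library kits, TruSeq and NEBNext. Other data of the study were not analysed here.

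Groups and replicate numbers came from the labels. Counts of 10 samples were fitted with edgeR 4.0.16 under R 4.3.3 (TMM scaling, quasi-likelihood test). Both the filter of 200 counts, which left 19006 genes, and the replicate block follow the study's methods. Adjusted p-values are those of Benjamini and Hochberg, with a threshold of 0.05. The SE of a log2 change was derived from its quasi-likelihood F statistic, as the size of the change over the root of F. The shared numbers of the labels were taken to pair samples because the deviations from the group means correlated above 0.1 for each number (r of 0.22 to 0.51). Different numbers gave -0.35 to 0.32. No pair of replicates agreed within sampling noise, but replicates 4 and 5 were far closer to each other than any others. Their chi-square per gene was 13.1 in control samples, against 47.9 to 187 for other pairs. In irradiated samples it was 7.68, against 35.4 to 81.5. The reason was not tested, and the fits and permutations took all 5 replicates as equally separate. The edgeR, DESeq2 and limma-voom steps were tested on simulated data.

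Ratios and shares were compared by exact permutation tests over samples, two-sided. Count ratios of KRT23, KRT34 and KRT33B have exact 95% intervals, for counting error only, since reads without molecular identifiers are not independent molecules. Replicate spread sets the precision of abundant genes, and for KRT23 and KRT34 counting error adds to it. KRT34 ran from 0.101 to 0.389 CPM in irradiated samples. The intervals leave out such spread between replicates and may be too narrow. Coordinates, exon lengths and overlaps came from GENCODE release 44 of GRCh38, promoters from RefSeq.

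The keratins, the lists and the tests were chosen with earlier results of these data known. All 9 keratins were named, and in each other list the genes called and more than 2-fold changed, otherwise up to 4 genes with the largest changes, together with relatives of the 9 keratins (KRT86, KRT83, KRT16, KRT33A, KRT33B, KRT14 and KRT10) and, for each tested keratin, the 2 genes with the nearest profile. ITGB4, PLEC, DSP, TP63, VIM, KRT5, KRT6A, KRT13, KRT4, IVL, SPRR1A and single cell type markers were picked out after their values had been seen. Alternatives were DESeq2 1.42.0, voom in limma 3.58.1, upper-quartile, library size and median-of-ratios scaling, other count filters, no replicate block, a test against 2-fold, each replicate left out, and other lengths and denominators. Adding counts of pseudogenes to their parent gene was chosen after seeing the data. Figures were drawn with matplotlib 3.10.9.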

Additional observations from a re-analysis of the deposited data

Results flagged for a closer look

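Samples far from the rest of their group by Dixon's criterion for 5 samples were found in 4 of 84 groups of values, where chance flags about 1 in 20 groups, or 4.2 here. For KRT17, control replicate 3 had 1.276 CPM while the other controls had 0.286 to 0.365, and the log2 change was 1.04 without replicate 3 and 0.58 with it. For KRT23, control replicate 5 stood high at 0.1344 CPM against 0.0429 to 0.0498, which is 16 counts against 4 to 6. For HRNR, control replicate 2 stood high at 3.978 CPM against 1.97 to 2.49 and still below the lowest irradiated sample, at 6.70 CPM. For VIM, irradiated replicate 2 stood low at 363.8 CPM against 433 to 457 in the other irradiated samples. The cause was not tested for any of them.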

How the results depend on the processing

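Without the replicate block, calls of the 9 keratins were 3 higher and 0 lower (KRT81, adjusted p = 0.122), 3 of the desmosome list were lower and 1 transcription regulator was higher. GFAP, VIM and ITGB4 also lost their calls, and the block changed no other call of a gene whose alternatives were run. For ratios, the sign-flip test over 5 pairs cannot go below an exact p of 0.0625, so KRT7 to KRT8 (0.60), KRT19 to KRT18 (0.39), KRT8 to KRT18 (-0.20) and type II to type I (-0.25, all log2) each had an adjusted p of 0.0938. In a test against 2-fold (glmTreat), 540 genes were higher and 238 lower over all genes. It called 0 of the 7 tested keratins in either direction (0 at an unadjusted p under 0.05). KRT23 and KRT34, under 200 counts, were not in this test. It called 2 desmosome genes and 2 cornified envelope genes higher, 0 transcription regulators, and 0 lower in every list. With a minimum of 1 count, 5 of the 9 keratins (KRT18 and KRT34 added) and 5 other keratins were higher, 1 cornified envelope gene was lower and 1 regulator higher. Among those other keratins, KRT33B passed that minimum only through irradiated samples. With library size only, 1 regulator was higher. The keratin share differed by 0.0813 percentage points of nuclear-encoded counts (exact permutation p = 0.0397).

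With each replicate left out in turn, 2 to 4 of the 9 keratins were higher and 0 to 1 lower, and 1 to 2 regulators were higher. KRT81 was not called without replicate 1, 2, 4 or 5. The ratios ran from 0.52 to 0.68 (KRT7 to KRT8), 0.32 to 0.47 (KRT19 to KRT18), -0.24 to -0.17 (KRT8 to KRT18) and -0.28 to -0.22 (type II to type I). The cause of these shifts was not tested, except that fewer assignments raise the smallest exact permutation p to 0.0286. Adding pseudogene counts, chosen after seeing the data, left 3 keratins higher and 1 lower. Directions reversed for DSP with library size only (-0.031) and for TP63 without replicate 1 (-0.45 to 0.063 with each replicate left out that gave a value), neither of which was called in any fit, and for no other result. Depth limits KRT17, KRT23, KRT34 and KRT81, and shared sequence limits KRT81 most. Of the 75-base stretches, 18.8% of those of KRT8 and 6.5% of those of KRT18 also occur in their pseudogenes. At 150 bases both shares were 0%. Pseudogenes held counts equal to 0.986% to 1.42% of KRT8 counts and 0.569% to 1.21% of KRT18 counts in a sample.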

Other observations

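KRT13 and KRT4, keratins of internal stratified epithelium, were counted in samples of replicates 4 and 5 and in no sample of replicates 1 to 3. KRT13 had 1 and 7 counts in control replicates 4 and 5 and 8 and 10 counts in irradiated replicates 4 and 5. KRT4 had 10 counts in control replicate 5 and 9 and 5 counts in irradiated replicates 4 and 5. Replicates 4 and 5 were also the closest to each other over all genes in both groups, and a link was not tested. These keratin genes were singled out after their values had been seen.

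Hair keratins of both types were detected at low levels. KRT34, KRT33B and KRT83 gave 2, 0 and 24 counts in control and 85, 22 and 65 counts in irradiated samples, whereas KRT81 gave 432 and 204 counts, a difference whose call was lost without the replicate block, and KRT86 gave 88 and 84.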
